A study of Homo sapiens with 16 samples.

Results

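CEM is a cell line from T-cell acute lymphoblastic leukaemia (T-ALL), a cancer of immature T cells, and its expression under the vehicle DMSO was set against that of 3 other T-ALL lines, CUTL1, DND41 and Jurkat. The arrays were chosen by their labels, line CEM and treatment DMSO, which gave 2 of the 16 arrays of the series and 2 of the 8 arrays of DMSO-treated cells. All 4 lines received DMSO or 1 uM PD-0332991 (palbociclib, an inhibitor of the cyclin D kinases CDK4 and CDK6) for 15 h, with 2 Affymetrix U133 Plus 2.0 arrays for each line and treatment. CEM with DMSO was compared with CUTL1, DND41 and Jurkat with DMSO, each line weighed equally. The PD-0332991 arrays served to repeat the comparison and to test whether the CEM difference changed with treatment. No genotype is given in the labels, each line stands for itself alone, and nothing in the labels shows whether the arrays of a group are separate cultures. The p-values therefore measure array-to-array spread, which may be technical.

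T-ALL cells keep much of the programme of the thymocyte stage at which they stopped maturing. In many cases they also carry, switched on, a transcription factor that T-cell precursors normally lack or silence, such as TAL1, LMO2, TLX3 or an NK-type homeobox gene. NKX2-5 is such a homeobox gene, best known for its part in building the heart, and in CEM it is known to be joined by a chromosome translocation to the region of BCL11B, a gene that thymocytes express strongly. LMO2 is an adaptor protein that bridges TAL1 to other DNA-binding factors in blood stem cells and is normally shut off as T cells mature.

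Levels are log2 intensities of 1 probe set a gene, and 13557 of 19775 named genes were bright enough in at least 1 line to be tested. A difference is CEM minus the mean of the 3 other lines. A gene was called higher or lower in CEM where the limma adjusted p of that difference was under 0.05 and both CEM arrays lay beyond all 6 arrays of the other lines. By this rule 3235 genes (23.9%) set CEM apart, of which 1548 (11.4% of all tested) were higher in CEM and 1687 (12.4%) were lower. Without the line CUTL1, the lower count was 2587, without Jurkat 2350 and without DND41 1996, each with fewer arrays to lie beyond. The difference alone passed for 5642 genes (41.6%), of which 2407 did not have both CEM arrays beyond all the others. Most called genes stood close to the next line, with a median gap of 0.30 for the higher genes and -0.33 for the lower ones. A gap of at least 2-fold from the nearest line was reached by 164 higher genes (1.21%) and 195 lower genes (1.44%). In 120 of the 1548 higher genes, 49 of the 164 among them, all 3 other lines were below the brightness needed for testing. These genes were tested only because CEM was high. The same call made for each other line in turn gave 1684 higher (12.4%) and 1833 lower genes (13.5%) for CUTL1, 1740 (12.8%) and 1641 (12.1%) for DND41, and 2373 (17.5%) and 1633 (12.0%) for Jurkat. A gap of at least 2-fold was reached by 228 higher (1.68%) and 160 lower genes (1.18%) in DND41, by 221 (1.63%) and 205 (1.51%) in CUTL1, and by 264 (1.95%) and 238 (1.76%) in Jurkat, so CEM had the fewest wide gaps on the higher side. Set against each line singly at a limma adjusted p under 0.05, CEM was higher for 19.5% and lower for 19.9% of genes against CUTL1, for 19.6% and 22.0% against DND41, and for 19.0% and 25.2% against Jurkat.

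The 2 CEM arrays correlated at 0.997 over genes, against 0.9949 to 0.9976 in the other lines. The log2 ratio of the 5′ to the 3′ actin control, a sign of RNA integrity, was -0.51 and -0.73 in CEM and between -1.38 and -0.74 in the others. Both CEM arrays thus lay above all the others, replicate 2 only just. The 18S ribosomal RNA control was 12.56 on CEM replicate 2, against 13.17 to 13.48 on the other DMSO arrays. The part of these differences in the results was not tested. T-cell markers were present in CEM, with CD3D, a chain of the T-cell receptor complex, at 14.13 and 14.11 in CEM against 13.85 to 14.21 elsewhere. Of 11 such markers tested, 0 were higher and 1 (9.09%; CD247, the zeta chain of the T-cell receptor) was lower in CEM, beside 11.4% and 12.4% of all genes tested, with a median difference of 0.01. In bulk RNA, fewer cells with a transcript and less transcript per cell cannot be told apart.

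NKX2-5 and LMO2 both stood out. NKX2-5 measured 10.76 and 10.68 on the CEM arrays, against 6.88 and 6.74 in CUTL1, 5.80 and 5.73 in DND41, and 6.09 and 5.67 in Jurkat. Every CEM value was far above every other, and the nearest line was CUTL1. The difference was 4.57 ± 0.11 (SE, n = 2 CEM and 6 other arrays), or 23.8-fold, with a limma adjusted p of 8.74e-08. LMO2 measured 7.87 and 8.16 in CEM, against 5.78 and 5.71 in CUTL1, 5.09 and 4.49 in DND41, and 6.09 and 5.81 in Jurkat. The groups again did not overlap, and the difference was 2.52 ± 0.16 with a limma adjusted p of 1.28e-05. MYB, a factor that drives growth of immature blood cells, was the remaining member of the list called, at 12.93 and 12.70 in CEM against 11.80 to 12.26 in the other lines. Of 25 T-ALL oncogenic factors, 11 were tested, 8 were dim in every line and 6 were not analysed here. Of the 11, 3 were higher in CEM (27.3%), 0 were lower and 8 were neither, beside 11.4% and 12.4% of all genes tested. NKX2-5 and LMO2, chosen as markers of CEM with earlier results of these data known, make up all but 1 of the 3, so nothing is read from that share. The median difference was 0.71, beside -0.0040 over all genes tested.

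None of the other 8 T-ALL factors tested was called, and their values are given without a direction. TAL1, a stem-cell factor that pairs with LMO2, measured 8.85 and 8.93 in CEM, against 4.17 and 4.42 in CUTL1, 8.38 and 8.23 in DND41, and 11.23 and 11.22 in Jurkat, so CEM lay between Jurkat and DND41. LYL1, the close relative of TAL1, measured 8.02 and 8.03 in CEM against 6.21 to 9.12 elsewhere, with DND41 on top. HHEX and LMO1 were chosen for naming with their values known. The homeobox gene HHEX, a known target of LMO2 in mouse thymocytes, measured 9.33 and 9.27 in CEM, against 3.55 and 3.40 in CUTL1, 9.85 and 9.79 in DND41, and 5.30 and 5.01 in Jurkat, so CEM and DND41 were the lines with high values. TLX3, a homeobox gene, and LMO1, a relative of LMO2, had their top values in DND41, with TLX3 at 3.56 and 3.43 and LMO1 at 5.04 and 4.88 in CEM, against 6.66 and 7.06 and 9.11 and 9.26 in DND41. BCL11B itself did not pass, with a difference of 0.01 and a limma adjusted p of 0.924. STIL, which lies next to TAL1 on chromosome 1 and was named after its values were seen, measured 8.37 and 8.30 in CEM against 9.33 to 10.09 in the other lines, a difference of -1.33 ± 0.17 (limma adjusted p 0.000564). With PD-0332991 the STIL difference was -0.40 and did not pass (limma adjusted p 0.139).

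**Figure D1:**
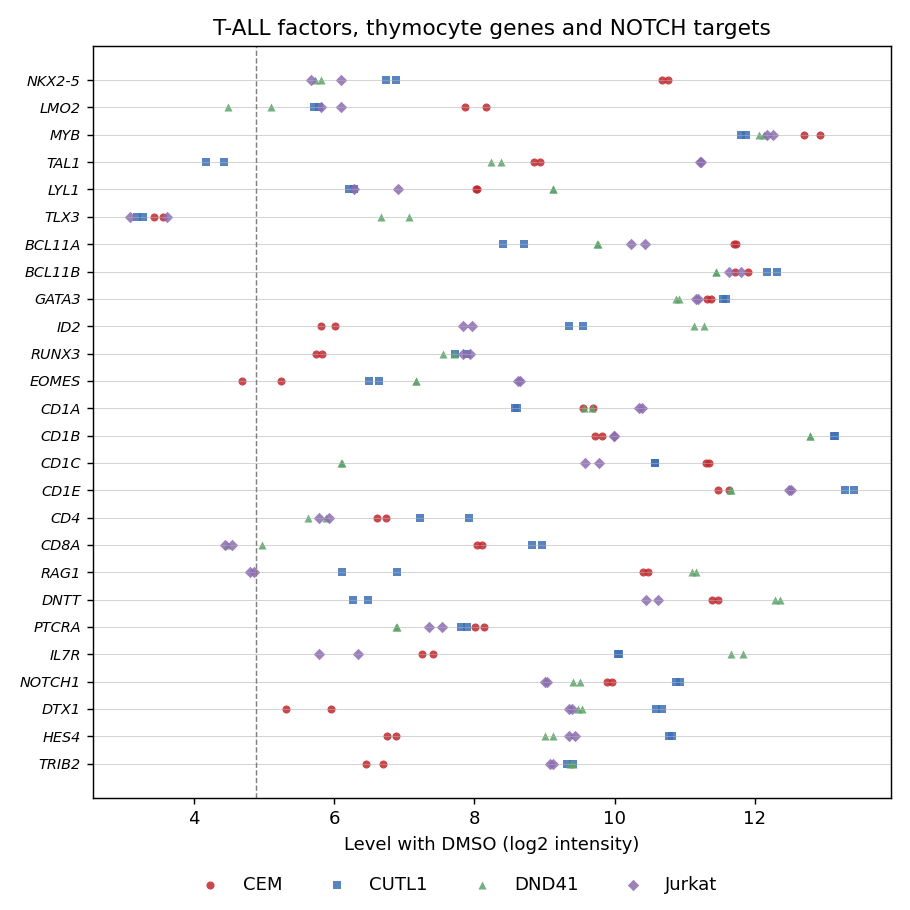
Log2 intensity of T-ALL factors, thymocyte genes and NOTCH targets on the 8 DMSO arrays, 1 point an array, with CEM in red circles and the dim level as a dashed line. NKX2-5 at 10.76 and 10.68 and LMO2 at 7.87 and 8.16 lie right of all other lines, DTX1, HES4 and TRIB2 lie left of them, and TAL1 lies between Jurkat and DND41.

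With uncharacterised loci and genes that mark sex passed over, the 20 genes with the largest gap stood 2.72 to 5.89 above the nearest line. In 14 of them all 3 other lines were below the dim level of 4.88, so these were tested only because CEM was high. ST18, a zinc finger factor of the nervous system, led the list: it measured 9.12 and 9.06 in CEM and between 2.84 and 3.31 in the other lines, a 67.4-fold difference of 6.07 ± 0.08. Only 2 of the 4 ST18 probe sets had this sign. By limma adjusted p, 1 of the 4 passed in this direction and 0 in the other. LGALS1, the secreted lectin galectin-1 that binds sugars on T cells, measured 12.33 on both CEM arrays, against 5.58 and 5.60 in CUTL1, 6.15 and 6.11 in DND41, and 7.74 and 7.56 in Jurkat. Its difference of 5.87 made it 58.6-fold higher, and unlike ST18 it was above the dim level in every line. NKX2-5 was among the 20, and so were secreted proteins: GDF10, a growth factor of the BMP family, measured 9.41 and 9.50 in CEM against 3.30 to 5.16 elsewhere, and ANGPT1, the ligand of the endothelial receptor TIE2, measured 7.81 and 7.60 against 3.31 to 3.66. SOSTDC1, a secreted antagonist of BMP and WNT signals, differed by 2.99.

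Further genes of this group encode membrane and signalling proteins. VAMP8, a vesicle fusion protein, differed by 4.98, STYK1, a kinase-like membrane protein, by 4.09, and PTPRM, a receptor phosphatase, by 2.95. The ATP-gated channel P2RX7 differed by 2.93, and the calcium channel TRPV6 measured 8.82 and 8.72 in CEM against 5.10 to 6.14 elsewhere. Only 1 of the 2 TRPV6 probe sets had this sign, and 0 were called the other way. DAB1, an adaptor of reelin signalling in neurons, differed by 3.08, and the mitochondrial protein ARMCX1 by 4.45. Enzymes that build sugar chains were HS3ST4, which sulfates heparan sulfate (4.35), and GALNT3, which starts O-linked chains (3.33). In the nucleus, the repressor DACH1 differed by 4.48, the nuclear body protein SP140 by 2.93 and the long non-coding RNA HCG11 by 3.65. A pair of early B-cell genes was among the 20: VPREB1, a surrogate light chain, measured 8.37 and 8.26 in CEM against 4.33 to 4.95 elsewhere, and IGHM, the immunoglobulin mu heavy chain, differed by 4.16 although 1 of its 5 probe sets was called the other way. Over all 20, limma adjusted p ran between 4.90e-09 and 2.05e-06, with the 14 tested only because CEM was high among them.

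**Figure D2:**
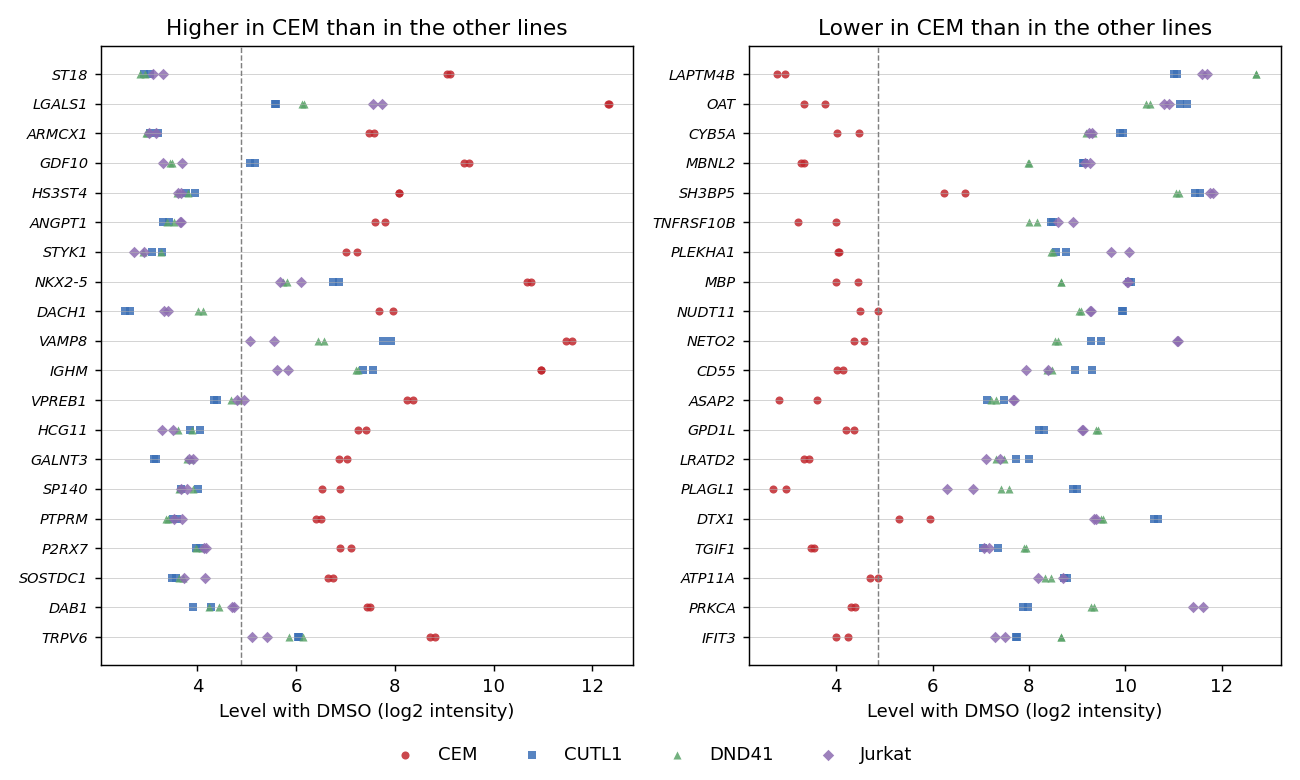
Log2 intensity on the 8 DMSO arrays of the 20 genes furthest above and the 20 furthest below the nearest other line in CEM, 1 point an array. Uncharacterised loci and genes that mark sex were passed over. The CEM points of ST18 (9.12 and 9.06) and LAPTM4B (2.78 and 2.94) have the widest gaps to the nearest line among the higher and the lower genes shown.

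Because NKX2-5 binds DNA, the promoters of the genes that differed most were read for a core of the NK2-type motif, TNAAGTG on either strand, in the window of 250 bases before to 50 after each gene's start (RefSeq, GRCh38.p14). Of the 164 higher genes 122 had a promoter entry, and 12 of these genes held the motif in at least 1 entry (9.84%). It was 14 of 151 genes with an entry among the 195 lower genes (9.27%). Among all genes tested it was 1085 of 10892 (9.96%), so the share was about the same in each. Of the 20 furthest-higher genes 13 had a promoter entry, and none of these held it (0 of 13). A match is only a match of letters. The 3 promoters below belong to higher genes that hold the motif, named after their values were seen, and show where it lies. They were taken by width of gap with genes on some chromosomes passed over, so a wider gap elsewhere is not excluded. Capitals mark the motif or its reverse complement, and each promoter is written 5′ to 3′ on the gene's strand.
NIBAN1 promoter, chr1:184974459-184974758 (- strand): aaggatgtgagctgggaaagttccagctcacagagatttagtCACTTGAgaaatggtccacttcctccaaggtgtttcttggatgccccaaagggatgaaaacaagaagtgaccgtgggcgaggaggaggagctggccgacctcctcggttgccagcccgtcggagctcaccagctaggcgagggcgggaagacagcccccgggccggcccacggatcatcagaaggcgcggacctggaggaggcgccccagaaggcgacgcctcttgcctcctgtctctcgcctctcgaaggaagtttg
PTPN3 promoter, chr9:109417734-109418033 (- strand): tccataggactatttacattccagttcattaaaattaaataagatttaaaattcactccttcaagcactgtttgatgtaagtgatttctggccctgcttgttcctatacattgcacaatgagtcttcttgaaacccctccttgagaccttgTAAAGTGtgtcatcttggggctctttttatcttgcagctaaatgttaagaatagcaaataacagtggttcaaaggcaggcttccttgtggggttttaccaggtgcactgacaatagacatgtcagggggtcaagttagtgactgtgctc
CPNE4 promoter, chr3:132034965-132035264 (- strand): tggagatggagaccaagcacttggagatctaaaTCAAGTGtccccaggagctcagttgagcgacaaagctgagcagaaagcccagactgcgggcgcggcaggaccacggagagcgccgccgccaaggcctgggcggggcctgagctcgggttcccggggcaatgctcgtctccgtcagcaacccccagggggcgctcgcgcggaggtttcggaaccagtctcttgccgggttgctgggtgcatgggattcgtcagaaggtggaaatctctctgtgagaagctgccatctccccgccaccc
NIBAN1, a stress-response gene, measured 7.87 and 7.81 in CEM against 5.08 to 5.85 elsewhere, with the motif at position -208 from the gene's start. PTPN3, a tyrosine phosphatase, measured 8.85 and 8.76 in CEM against 4.96 to 6.97 elsewhere, with the motif at -99. CPNE4, a calcium-dependent membrane-binding protein, measured 5.46 and 5.34 in CEM against 3.41 to 3.98 elsewhere, with the motif at -217. All its values in the other lines were below the dim level of 4.88, so it was tested only because CEM was high.

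On the lower side the gaps were wider. The 20 furthest-lower genes, again with uncharacterised loci and genes that mark sex passed over, stood 3.27 to 8.17 below the nearest line. CEM was below the dim level in 18 of them. LAPTM4B, a lysosomal membrane protein, measured 2.78 and 2.94 in CEM, against a mean of 11.04 in CUTL1, 12.71 on both DND41 arrays, and 11.59 and 11.69 in Jurkat. No other line came within 8 log2 units of CEM, and the difference of -8.93 ± 0.07 had a limma adjusted p of 8.73e-10. LAPTM5, a relative of LAPTM4B found in blood cells, was instead higher in CEM, by 1.53, and LAPTM4A was neither (0.03); both were named after their values were seen. OAT, the mitochondrial enzyme ornithine aminotransferase, measured 3.33 and 3.77 in CEM against 10.43 to 11.28 elsewhere, a difference of -7.29 ± 0.12.

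The remaining 18 covered signalling, membranes and metabolism. Kinase signalling was represented by PRKCA, the alpha isoform of protein kinase C (-5.23), and by SH3BP5, a partner of the kinase BTK (-5.00). TNFRSF10B, the death receptor for TRAIL, differed by -4.83, with 1 of its 4 probe sets called the other way, and CD55, which shields cells from complement, by -4.49. MBNL2, a splicing factor, differed by -5.48, the myelin protein gene MBP by -5.37, the phosphoinositide-binding PLEKHA1 by -4.96 and the receptor partner NETO2 by -5.21. Metabolic and lipid-handling genes were CYB5A, the electron carrier cytochrome b5 (-5.23), NUDT11, which cuts inositol pyrophosphates (-4.73), GPD1L (-4.64) and the lipid flippase ATP11A (-3.74). PLAGL1, an imprinted zinc finger gene, differed by -4.85, the ARF regulator ASAP2 by -4.20, LRATD2 by -4.12, and the interferon-induced IFIT3 by -3.80. TGIF1, a homeobox repressor of TGF-beta signals, differed by -3.91 on the probe set used, but by 0.13 with no call (limma adjusted p 0.389) when probe sets open to cross-hybridisation were left out. DTX1, a NOTCH target, completed the group.

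Among transcription factors of the T lineage, 37 were tested, of which 4 were higher in CEM (10.8%) and 7 lower (18.9%), beside 11.4% and 12.4% of all genes tested, with a median of -0.37. BCL11A, a factor of B cells and early progenitors, measured 11.73 and 11.71 in CEM against 8.41 to 10.43 elsewhere. The chromatin organiser SATB1 (1.89) and the calcium-regulated factor NFATC2 (2.27) were also higher. ID2, which blocks E proteins and is needed by innate lymphoid cells, measured 6.01 and 5.80 in CEM, against 9.35 and 9.55 in CUTL1, 11.14 and 11.27 in DND41, and 7.83 and 7.97 in Jurkat. RUNX3, a factor of CD8 T cells, and EOMES, a factor of cytotoxic cells, were lower too (-1.99 and -2.50). GATA3, which all T cells need, was neither, at 11.32 and 11.37 in CEM against 10.88 to 11.59 elsewhere.

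Of 26 thymocyte stage genes tested 3 were higher (11.5%) and 2 lower (7.69%), and of 35 genes of the T-cell receptor and its first signalling steps 4 were higher (11.4%) and 2 lower (5.71%), beside 11.4% and 12.4% of all genes tested. The CD1 genes, lipid-presenting proteins of cortical thymocytes, went different ways: CD1C measured 11.35 and 11.30 in CEM against 6.09 to 10.57 elsewhere, CD1B measured 9.73 and 9.82 against 9.99 to 13.15, and CD1E differed by -0.95. CD1E and CD1B were close to their nearest lines, with gaps of -0.10 from DND41 and -0.22 from Jurkat. RAG1, which cuts receptor genes for joining, measured 10.40 and 10.47 in CEM, against 6.10 and 6.89 in CUTL1, 11.16 and 11.10 in DND41, and 4.80 and 4.86 in Jurkat. DNTT, which adds bases at the joints, measured 11.47 and 11.39 in CEM against 6.27 to 12.36 elsewhere. For both genes CEM came second to DND41. CD8A, a co-receptor, measured 8.11 and 8.04 in CEM against 4.45 to 8.96 elsewhere, below CUTL1 only, and CD4 was not called (limma adjusted p 0.227). PTCRA, the pre-T-cell receptor alpha chain, was higher by 0.68, as were SH2D1A, an adaptor of SLAM receptors, by 1.23 and the phosphatase UBASH3A by 1.01. CD247 was lower (-0.56). FYN, a kinase of the receptor, had a difference of -0.24 whose limma adjusted p was not under 0.05 in 5 of 21 alternatives.

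Of 32 homing and adhesion receptors tested, 7 were higher (21.9%, beside 11.4% of all genes) and 2 lower (6.25%, beside 12.4%), with a median of 0.17. CCR7, which guides cells to lymph nodes, measured 8.49 and 8.31 in CEM against 5.73 to 7.07 elsewhere, and CCR4, a receptor of skin-homing cells, measured 6.16 and 5.95 against 4.28 to 4.76. CD9, a tetraspanin, was lower (-1.17), while its relative CD81 was higher, by 0.62.

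Cytokine receptors and the JAK-STAT pathway held 6 higher (16.2%) and 5 lower genes (13.5%) among 37 tested, beside 11.4% and 12.4% of all genes tested. STAT5B, which carries signals of IL-2 and IL-7, measured 10.40 and 10.39 in CEM against 8.98 to 9.49 elsewhere. STAT5A was higher by 1.51 and STAT3 by 0.47, both named after their values were seen. The shared receptor chain IL2RG was higher by 0.73. The receptor of IL-6-type cytokines, IL6ST, measured 4.52 and 4.61 in CEM against 7.24 to 8.76 elsewhere, although 1 of its 7 probe sets was called the other way, and STAT4, which acts after IL-12, was lower (-2.48). IL7R, the receptor of the main growth factor of early T cells, measured 7.41 and 7.25 in CEM, against 10.04 and 10.06 in CUTL1, 11.67 and 11.84 in DND41, and 5.78 and 6.34 in Jurkat, so it lay inside the range.

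The NOTCH pathway held 2 higher (6.25%) and 6 lower genes (18.8%) among 32 tested, beside 11.4% and 12.4% of all genes tested, with a median of -0.26. NOTCH1 itself, the receptor that commits progenitors to the T lineage, was inside the range at 9.89 and 9.97 in CEM against 9.01 to 10.94 elsewhere. Of its targets, DTX1, HES4 and TRIB2 were lower, while HES1, HES5, HEY1, HEY2 and NRARP were not called. HES1 differed by 0.25, HES5 by -0.28, HEY1 by -1.06, HEY2 by -0.94 and NRARP by -1.78. DTX1, a ubiquitin ligase, measured 5.95 and 5.31 in CEM, against 10.68 and 10.59 in CUTL1, 9.53 and 9.48 in DND41, and 9.40 and 9.35 in Jurkat. HES4, a repressor, measured 6.87 and 6.76 in CEM and averaged 10.79 in CUTL1 and 9.39 in Jurkat, with DND41 nearest at a difference of -2.25, and TRIB2, a pseudokinase, measured 6.45 and 6.69 against 9.08 to 9.41. IGF1R, the IGF1 receptor, was lower (-2.59), with 1 probe set called the other way, and the coactivator MAML1, named after its values were seen, was lower (-1.05). On the higher side stood PTCRA and MFNG, a glycosyltransferase that modifies NOTCH (0.79). MYC, another target, was not called, at 11.29 and 11.37 in CEM against 10.81 to 12.03 elsewhere.

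**Figure D3:**
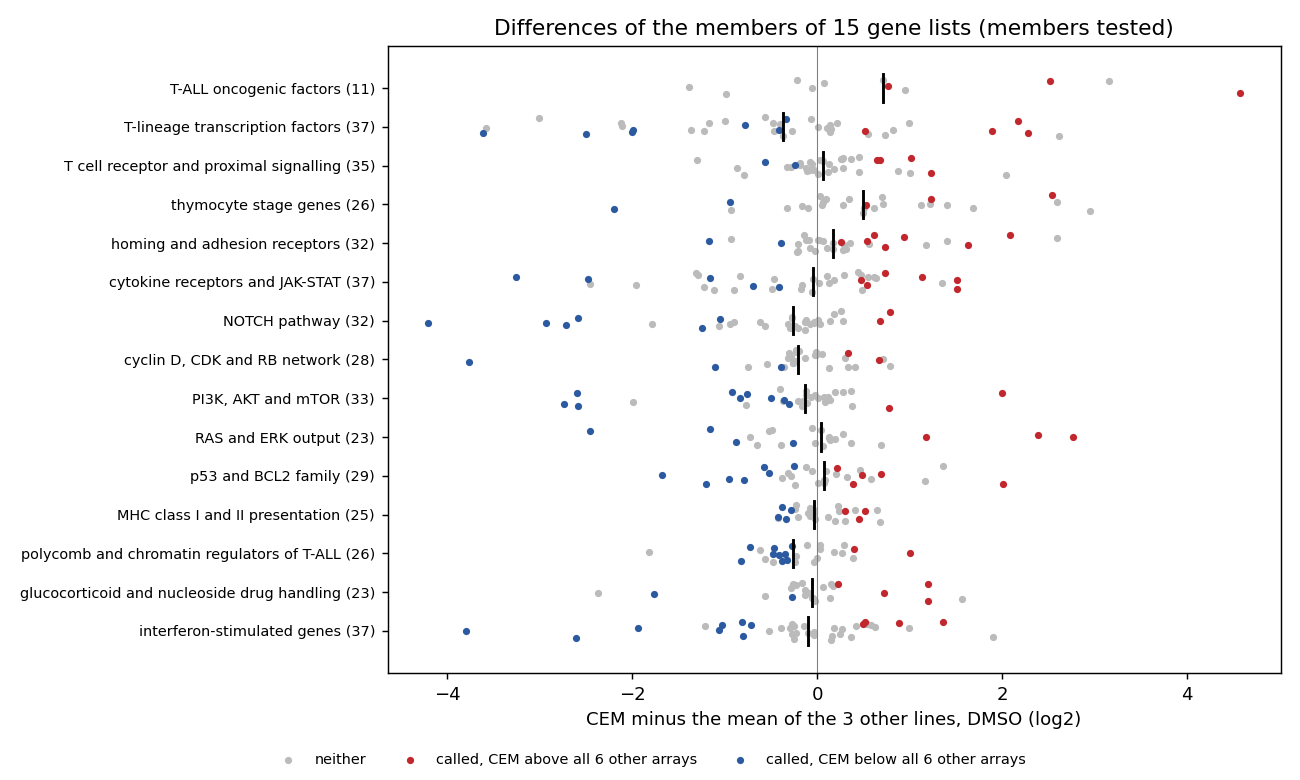
Difference between CEM and the mean of the 3 other lines with DMSO (log2) for the tested members of 15 gene lists, 1 point a gene, with bars at the medians. Called genes are coloured; NKX2-5 at 4.57 is the rightmost point and DTX1 at -4.21 the leftmost.

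The PI3K list held 2 higher and 9 lower genes among 33 tested (27.3% lower, beside 12.4% of all genes), with a median of -0.13. IRS2, an adaptor of insulin signalling, was lower, at 5.40 and 4.91 in CEM against 6.18 to 10.12 elsewhere, and so were the regulatory subunit PIK3R1 (-0.92) and FOXO1, a factor held in check by AKT (-0.84), both named after their values were seen. AKT1, the kinase of the pathway, was higher by 0.78. TXNIP, which limits glucose uptake, was called higher by 2.00 but stood only 0.07 above DND41, the nearest line.

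Of 23 genes of the RAS and ERK pathway and its outputs tested, 3 were higher (13.0%) and 4 lower (17.4%), beside 11.4% and 12.4% of all genes tested. SPRY1, a feedback inhibitor of receptor signalling, measured 8.97 and 8.77 in CEM against 4.60 to 6.91 elsewhere, while its close relative SPRY2 measured 4.71 and 4.85 against 6.91 to 7.75. ETV5, an ERK-induced factor, was higher by 2.39, and the ERK phosphatase DUSP5 was lower (-1.16).

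In the cyclin D, CDK and RB network, which PD-0332991 acts on, 2 of 28 genes were higher (7.14%) and 3 lower (10.7%), beside 11.4% and 12.4% of all genes tested. CDKN2A, which encodes the CDK4 and CDK6 inhibitor p16, measured 4.91 and 4.71 in CEM, against 9.89 and 9.79 in CUTL1, 10.73 on both DND41 arrays, and 5.42 and 4.91 in Jurkat. CEM and Jurkat were thus both near the dim level, and the higher CEM array was just below the lower Jurkat array. MTAP, the neighbour of CDKN2A, named after its values were seen, showed the same pair of low lines, with 3.95 and 4.44 in CEM, against 7.71 and 8.02 in CUTL1, 7.82 and 7.83 in DND41, and 4.06 and 3.96 in Jurkat. CDK6, a target of the drug, was not called, at 12.80 and 12.95 in CEM against 12.67 to 13.33 elsewhere. E2F5, a repressing E2F factor, was lower (-1.10).

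Of 29 genes of the p53 and BCL2 families 5 were higher (17.2%) and 7 lower (24.1%), beside 11.4% and 12.4% of all genes tested. BCL2A1, a survival protein, measured 7.18 and 7.21 in CEM against 3.96 to 6.54 elsewhere. Among the lower genes were BCL2L11, which encodes the killer protein BIM (7.53 and 7.69 in CEM against 8.87 to 9.91), PMAIP1, which encodes NOXA (-1.20), CASP8, the initiator caspase of death receptors (-0.95), and the survival gene BCL2 (-0.79).

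Of 37 interferon-stimulated genes 4 were higher (10.8%) and 8 lower (21.6%), beside 11.4% and 12.4% of all genes tested. GBP1, a GTPase against intracellular microbes, measured 7.31 and 6.99 in CEM against 9.49 to 10.04 elsewhere, and IFIT2, an interferon-induced RNA-binding protein, measured 5.49 and 4.91 against 6.99 to 7.42. IFITM2 and IFITM3, which block virus entry, were higher by 1.35 and 0.89. Of 25 genes of MHC presentation 3 were higher (12%) and 4 lower (16%), shares near those of all genes, with no difference above 0.51 or below -0.43 among those called.

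Chromatin genes of the polycomb and DNA methylation systems held 2 higher and 9 lower among 26 tested (34.6% lower, beside 12.4% of all genes), with a median of -0.26. The polycomb enzyme EZH2 measured 10.36 and 10.38 in CEM against 10.65 to 10.87 elsewhere, a small but separate difference of -0.41. KMT2A, a histone methyltransferase, was lower (-0.83), as were the DNA methyltransferases DNMT1 (-0.34), DNMT3A (-0.33) and DNMT3B (-0.72), named after their values were seen. DNMT3A differed by only -0.04 from DND41, and neither DNMT3A nor DNMT3B was beyond all other arrays with PD-0332991. KDM6A, which removes the polycomb mark, was higher by 1.00.

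Among 23 genes that handle leukaemia drugs 4 were higher (17.4%) and 2 lower (8.70%), beside 11.4% and 12.4% of all genes tested. NR3C1, the glucocorticoid receptor, measured 11.30 and 11.35 in CEM against 9.60 to 10.63 elsewhere, but its call was lost when probe sets open to cross-hybridisation were left out (0.87). GGH, which shortens folate chains, was higher by 1.20, and TPMT, which inactivates thiopurines, measured 6.97 and 6.55 in CEM against 8.36 to 8.81.

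Markers of other cell types were read in the same way. None of the 3 myeloid, 7 erythroid, 6 fibroblast or endothelial and 7 cardiac genes tested was called (0 in each list, beside 23.9% of all genes tested in either direction), counts too small to read against that share. A further 12 of the cardiac genes were dim in every line. Summed cardiac intensities were 564 to 565 in CEM and 513 to 578 in the other lines. Of 8 B-cell markers VPREB1 and CD79B (1.63) were higher (25%, beside 11.4% of all genes tested). EBF1, a master factor of B cells, was lower (-3.03), a share of 12.5% beside 12.4%, while PAX5 and MS4A1 were dim in every line. EPCAM was the 1 epithelial marker of 5 called higher (20%), at 6.04 and 5.53 in CEM against 3.05 to 3.24. VPREB1 and EPCAM were below the dim level in all 3 other lines, so they were tested only because CEM was high. Of 8 cytotoxic markers PRF1, the pore protein of killer cells (-1.59), and NKG7 (-0.55) were lower (25%). NCR3, an activating receptor, was higher (0.43), a share of 12.5% and a call lost without CEM replicate 2. These counts, too, are too small to read against the shares over all genes.

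The PD-0332991 arrays gave a second look at the same contrast on separate arrays, where 12.4% of genes were called higher in CEM and 11.7% lower. Of the 1548 genes higher with DMSO 1053 (68.0%) were again called beyond all other arrays, and of the 1687 lower genes 967 (57.3%) were. All 164 higher genes at least 2-fold from the nearest line were called again, and 185 of the 195 lower ones were. Recurrence by this rule itself needs a gap, so the wider-gap genes were bound to pass it more often. NKX2-5 had a difference of 4.61 with PD-0332991 and 4.57 with DMSO. The difference between CEM and the other lines itself changed with treatment for 385 of all genes (2.84%), and for 80 of the higher and 63 of the lower genes.

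**Figure D4:**
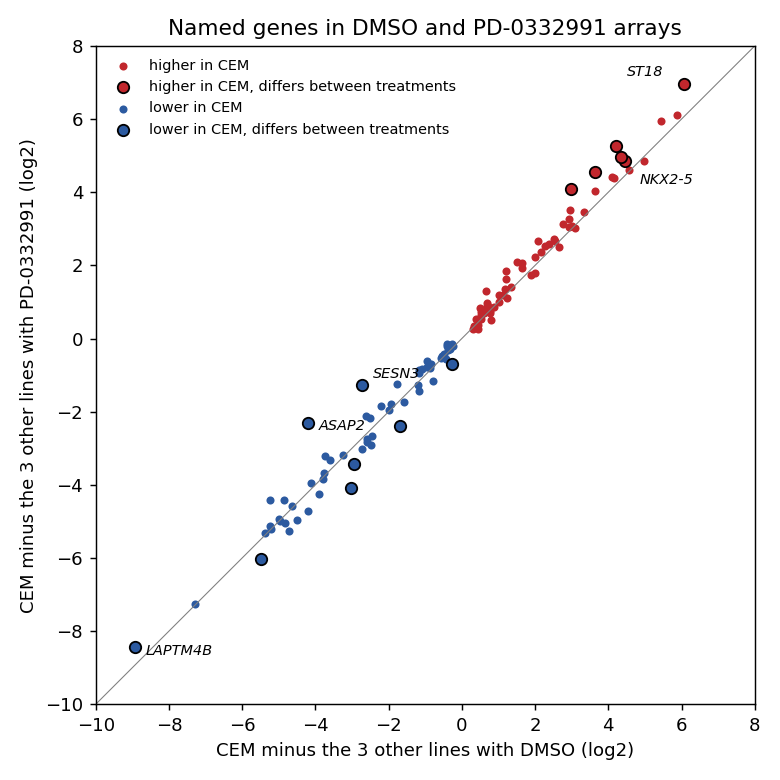
Difference between CEM and the mean of the 3 other lines with PD-0332991 against that with DMSO (log2), 1 point a named gene called with DMSO, with the line of equality. NKX2-5 lies near the line at 4.61 and 4.57, and ASAP2 is among the genes away from it.

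The share of called genes varied between autosomes, an arrangement looked at after the values were seen. On chromosome 20, 97 of 410 genes tested were higher in CEM (23.7%) and 21 were lower (5.12%), with a median difference of 0.11. On chromosome 5, 126 of 594 were lower (21.2%) and 51 higher (8.59%), with a median of -0.05. The other 20 autosomes ran between 6.45% and 16.2% for higher genes and between 7.68% and 17.7% for lower ones. Their medians ran between -0.11 and 0.04, so the chromosome 5 median was inside their range and the chromosome 20 median above it. The chromosome 20 median was 0.01 against CUTL1, 0.14 against DND41 and 0.20 against Jurkat, so CUTL1 was close to CEM there. Other lines had uneven shares too: by the same call made for each line, chromosome 20 had 19.3% higher genes in CUTL1 and 24.9% lower genes in Jurkat, and chromosome 5 had 21.0% higher genes in Jurkat. The number of gene copies was not measured, and its part was not tested.

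**Figure D5:**
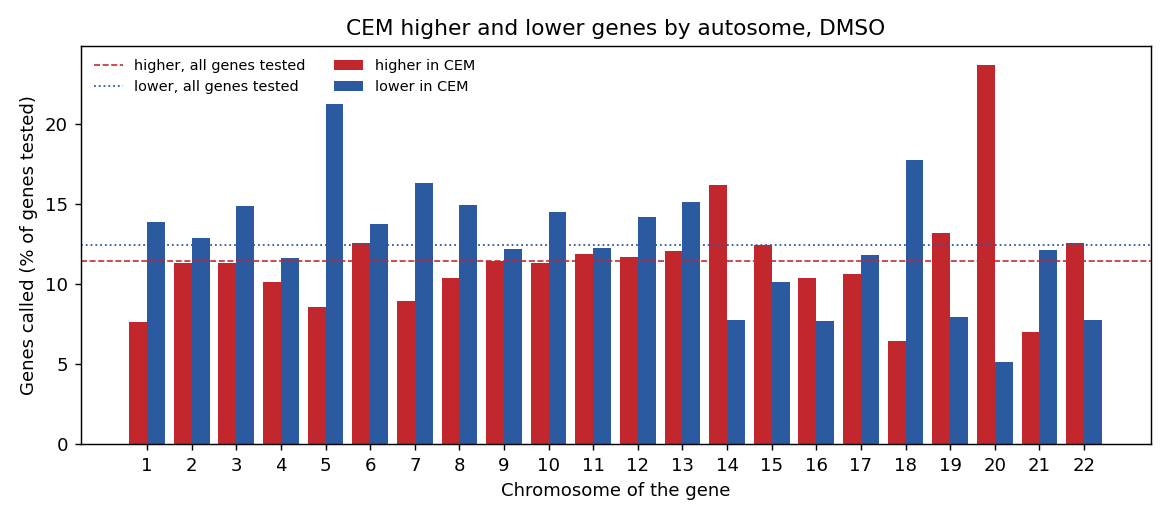
Percent of the genes tested on each autosome that were called higher (red) or lower (blue) in CEM with DMSO, with lines at the shares over all genes tested. Chromosome 20 has the tallest higher bar (23.7%) and chromosome 5 the tallest lower bar (21.2%).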

How the data were processed

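RNA from 4 T-ALL lines was hybridised to 16 arrays, and the analysis used the 8 DMSO arrays. The 8 PD-0332991 arrays were used for repetition and for the change with treatment. Per the labels' protocols, 5 ng of total RNA was amplified (Nugen Ovation) and labelled with biotin. The deposited intensity values were made with RMA, per the submitters' processing notes; its version is not given in the sources used here. They are linear (4.42 to 26097, array medians 28.5 to 31.2), where log2 had been assumed, so log2 was taken with no pseudocount or further scaling.

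Of 54675 probe sets, 41097 carried 1 gene symbol in the platform annotation, 1801 several and 11777 none; only the first kind was used, and 41043 matched RefSeq gene identifiers. Each gene was read from its brightest probe set by mean level on the DMSO arrays. Genes were tested where 1 line's mean reached the median of all values (29.5, or 4.88 in log2), the dim level, which left out 6218. RMA values carry no detection calls, so folds against levels below it are folds of measured values. Group means were fitted with limma 3.58.1 (lmFit, eBayes, two-sided, Benjamini-Hochberg over 13557 genes) in R 4.3.3, and the change with treatment over all 16 arrays; Python 3.11.15 with matplotlib 3.10.9 drew the figures, and pandas 2.3.3 built the tables. The scripts were tested on simulated data.

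Named genes were the 20 furthest from the nearest line in each direction, up to 3 called members of each list in each direction, and a set of T-ALL and T-cell genes; uncharacterised loci and genes that mark sex were passed over. Members and lists were chosen with earlier results of these data known. Same-numbered arrays were not taken as pairs, because nothing in the labels says that they share a culture or day. Their deviations correlated at -0.06 to 0.21 between lines, highest for CUTL1 with Jurkat. Alternatives covered scaling, filters, probe sets, left-out arrays and lines, and the call rule. The number of arrays limits the precision.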

Additional observations from a re-analysis of the deposited data

Results flagged for a closer look

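For 14 named genes the difference between CEM and the other lines itself changed with treatment by a limma interaction test, beside 385 of all genes tested (2.84%). Named genes were picked largely for their difference with DMSO, so the 14 are not read against that share. The interaction is the difference with PD-0332991 minus that with DMSO, in log2. Among the genes higher in CEM it was 0.89 for ST18 (10.28 and 9.90 in CEM with PD-0332991, against 9.12 and 9.06 with DMSO), 0.40 for ARMCX1, 0.60 for HS3ST4, 1.04 for ANGPT1, 0.91 for HCG11 and 1.10 for SOSTDC1, so all 6 stood further above the other lines with the drug.

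Among the genes lower in CEM it was 0.49 for LAPTM4B, -0.55 for MBNL2, -0.51 for HES4, -0.43 for SLC19A1 (a folate carrier) and -1.05 for EBF1 (limma adjusted p 0.0304). LAPTM4B was below the dim level of 4.88 in CEM with both treatments, at a mean of 2.86 with DMSO and 3.19 with PD-0332991. ASAP2 had the largest value of the 14, 1.89 (limma adjusted p 0.00404): with PD-0332991 it measured 3.45 and 3.66 in CEM against 4.60 to 6.72 elsewhere. Both of these CEM values were below the dim level. SESN3, a stress gene under FOXO control, followed at 1.46 (limma adjusted p 0.018), with 6.41 and 6.03 in CEM against 5.38 to 9.53 in the other lines with PD-0332991, so that CEM was then inside their range. BCL2L11 was at -0.71 (limma adjusted p 0.0162), with 7.19 and 6.94 in CEM against 8.56 to 10.64 in the other lines with PD-0332991.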

How the results depend on the processing

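Leaving out 1 DMSO array at a time gave 1133 to 1790 higher and 1443 to 1942 lower genes. Without the line CUTL1 there were 2032 and 2587, without DND41 1760 and 1996, and without Jurkat 2313 and 2350. With a line left out, CEM had fewer arrays to lie beyond. Requiring a call against each line singly left 739 and 879, and a gap of at least 2-fold left 164 and 195, fewer by construction. No scaling, probe set or filter alternative moved either count by 1.5 times. Quantile normalization gave 1791 and 1530, and centring the arrays 1333 and 1806. The fit with the replicate block gave 1555 and 1678. The count called again with PD-0332991 was 2020 and ran between 1872 and 2165 under the alternatives.

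The 122 called named genes were recomputed under 21 alternatives, wherever the alternative still tested the gene. Of these outcomes 2492 kept direction and a limma adjusted p under 0.05, 30 lost that p and 0 passed in the opposite direction. Whether both CEM arrays stayed beyond all the others was not part of this count, so it can miss lost calls. A loss was counted whatever its sign, and TGIF1 changed sign as it lost that p. The limma adjusted p under 0.05 was lost at least once by 15 genes, mostly small differences (FYN, RBL1, PDIA3, SLC19A1 and HLA-F among them). Of named genes that were not called, TAL1 turned to -0.88 and CD1A to -0.37 without the line CUTL1, NOTCH1 to -0.25 without the line Jurkat, and NOTCH3 to -0.50 with the mean of all probe sets; the cause was not tested beyond the left-out line. The medians of chromosomes 20 and 5 kept their signs over 21 alternatives added after the values were seen (0.06 to 0.17 and -0.09 to -0.03).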

Other observations

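Genes named after their values were seen added to the picture of CEM. FGFR1, a growth factor receptor, measured 9.97 and 9.81 in CEM against 7.82 to 8.05 elsewhere. ZNF521, a zinc finger factor of early blood cells, was higher by 3.41, the corepressor TLE1 by 2.49 and the cytokine TNF by 1.76. The GTPases GIMAP4 and GIMAP7, which act in lymphocyte survival, were lower (-3.88 and -2.36).

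Of 14 killer-cell immunoglobulin-like receptor genes measured 13 were tested, and 12 were higher in CEM and 0 lower (background shares 11.4% and 12.4%), by 0.64 to 2.82. With PD-0332991, 11 were called again. KIR2DL5A, KIR3DS1, KIR2DL2, KIR2DS3 and KIR2DS2 were below the dim level in every other line, so they were tested only because CEM was high. The count is therefore not read against the background shares. All 12 rest on probe sets marked as open to cross-hybridisation, so these near-identical genes cannot be told apart here.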
